A study of Rattus norvegicus with 9 samples.

Results

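The type A γ-aminobutyric acid (GABA-A) receptor subunits described here were 7 genes, Gabra2, Gabra3, Gabra4, Gabra5, Gabrb1, Gabrb2 and Gabrg1, taken from the gene table by their symbols. They were 7 of 20194 genes in that table, 7 of its 19 genes that encode a GABA-A subunit, and they were listed with 19 of its 46843 transcripts. RNA-Seq was performed on dorsal root ganglia (DRG), the sensory ganglia beside the spinal cord, of adult male Sprague-Dawley rats of 8 to 10 weeks, with 3 libraries in each of 3 groups. The sham group was, by its name, sham-operated, the SNI group had spared nerve injury, in which 2 branches of the sciatic nerve, the common peroneal and the tibial, were severed and tied while the sural branch was kept, and the SNI + G15 group had the same injury and was given G15, an antagonist of the G protein-coupled oestrogen receptor GPER, into the spinal canal. By the protocol that the labels give for all samples, catheters were placed on day 5 after SNI, which takes in the SNI group, and whether sham rats had one is not stated, so injury and catheter cannot be told apart in a comparison with sham. G15 was given at 1.8 μg/μl in 1 μl, for 24 h by the labels. The drug vehicle contained 2% dimethyl sulfoxide by the labels and 1% by the methods, and whether sham and SNI rats received vehicle is not stated plainly, so G15 and vehicle cannot be told apart in a comparison of SNI + G15 with the other groups. The comparisons describe how transcripts of a receptor family that the study singled out differed between these groups.

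GABA-A receptors are pentameric chloride channels opened by GABA. The common form joins α and β subunits with a γ subunit, the GABA site lies between α and β, and the benzodiazepine site lies between α and γ, so that the α subunit sets much of a receptor's kinetics, location and drug response. Sensory neurons hold high chloride, and in them GABA depolarises the cell body and the central terminal, which is the basis of primary afferent depolarisation.

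The libraries were those of sensory ganglia by their markers. All 25 genes of a sensory neuron list reached an FPKM of 1 (a scale that divides fragments by transcript length and library size), against 2 of 8 genes of a list of spinal cord glia, and no gene of either list was at 0 in every library. Total estimated reads per library lay between 18484557 and 18756736. All 10 genes of an injury response list exceeded sham in both injured groups, by a median of 3.26 (SNI) and 3.35 (SNI + G15) on the log2 scale. SNI + G15 replicate 3 stood apart from its group: the chi-square of its counts per gene was 9.21 and 8.90 against the other SNI + G15 libraries, which differed from each other by 3.29. The changes of Gabra2 and Gabrg1 between SNI + G15 and SNI are given with and without this library. Whole ganglia were sequenced, and fewer cells of a type and less RNA per cell cannot be told apart.

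The start regions of 4 subunits are shown first, because these 4 were the members whose counts differed between SNI and sham, upwards for Gabra5 and Gabrb1 and downwards for Gabra4 and Gabrb2. Each holds 250 bases before and 50 bases after the annotated gene start in RefSeq on build GRCr8, written 5′ to 3′ on the gene's strand. Capitals in the β subunits mark runs of at least 10 bases that the β1 and β2 start regions share, and capitals in the α subunits mark the GC box GGGCGG read on either strand.
Gabra5 (chr1:117516557-117516856, minus strand): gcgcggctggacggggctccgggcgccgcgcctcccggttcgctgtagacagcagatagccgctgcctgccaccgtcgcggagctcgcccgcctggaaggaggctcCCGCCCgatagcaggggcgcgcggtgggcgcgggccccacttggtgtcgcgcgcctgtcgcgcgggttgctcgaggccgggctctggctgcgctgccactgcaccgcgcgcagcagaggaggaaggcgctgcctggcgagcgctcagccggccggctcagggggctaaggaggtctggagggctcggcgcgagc
Gabra4 (chr14:36944497-36944796, plus strand): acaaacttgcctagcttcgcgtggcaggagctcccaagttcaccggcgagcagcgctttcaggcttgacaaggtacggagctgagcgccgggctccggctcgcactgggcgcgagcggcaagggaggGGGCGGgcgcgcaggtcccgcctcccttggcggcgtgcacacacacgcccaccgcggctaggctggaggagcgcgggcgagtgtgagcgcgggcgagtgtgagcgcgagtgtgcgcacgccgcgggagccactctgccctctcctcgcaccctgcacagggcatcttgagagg
Gabrb1 (chr14:36902844-36903143, minus strand): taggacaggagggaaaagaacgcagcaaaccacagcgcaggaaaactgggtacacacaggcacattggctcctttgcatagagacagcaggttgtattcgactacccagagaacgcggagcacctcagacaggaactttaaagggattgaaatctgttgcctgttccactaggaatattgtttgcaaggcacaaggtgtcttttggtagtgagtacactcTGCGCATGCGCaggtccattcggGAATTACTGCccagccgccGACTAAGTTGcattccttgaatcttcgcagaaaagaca
Gabrb2 (chr10:27439543-27439842, plus strand): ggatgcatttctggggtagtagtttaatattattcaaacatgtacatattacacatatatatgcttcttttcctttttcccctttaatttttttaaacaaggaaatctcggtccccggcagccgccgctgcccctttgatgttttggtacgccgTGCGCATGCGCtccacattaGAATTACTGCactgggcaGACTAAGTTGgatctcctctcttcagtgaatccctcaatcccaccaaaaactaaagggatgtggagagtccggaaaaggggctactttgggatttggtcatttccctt

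The β1 and β2 start regions shared 3 runs of at least 10 bases in the same order, TGCGCATGCGC, GAATTACTGC and GACTAAGTTG. In Gabrb1 the runs began at -30, -7 and 12 relative to the annotated start, and in Gabrb2 at -96, -76 and -58. The first run holds the palindrome GCGCATGCGC, the consensus of nuclear respiratory factor 1 (NRF-1), which 0.852% of the 33469 RefSeq start regions of this length also held. Over the 6 members with a start region in the table, no other pair had a shared run longer than 10 bases. Gabra4 and Gabrb1 reached that length, with a longest shared run of 10 bases. The shared stretch is a description of the sequence, and the 2 genes that carry it moved in opposite directions after SNI. No searched motif holds another within it.

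The start regions of Gabra5 and Gabra4 were of another kind. Their GC content was 76.3% and 70.7%, higher than in 97.6% and 92.6% of all start regions. It was 49.3% in Gabrb1 and 44.0% in Gabrb2, and the median of all start regions was 51.7%. High GC content was not shared by all α members, since Gabra3 had 39.3%, higher than in only 10.6% of all start regions. The GC box was found in Gabra5 and Gabra4, not in Gabra3, and in 33.1% of all start regions. Neither strand of the 6 members' start regions held the CRE TGACGTCA (1.83% of all start regions), the AP-1 letters TGANTCA (7.33%), the E-box CACGTG (6.42%) or an oestrogen response element of the form GGTCANNNTGACC (0.0269%). A missing match says only that these letters were not in these windows.

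In level, the 7 subunits spanned a wide range, and Gabra2 stood first in every group. On the FPKM scale in sham, the order of means was Gabra2, Gabrg1, Gabra3, Gabra5, Gabrb2, Gabra4 and Gabrb1, from 37.4 ± 1.54 down to 0.153 ± 0.035 (mean ± SD, n = 3), and the libraries of no 2 neighbours in that order overlapped. In SNI and SNI + G15 Gabra5 moved above Gabra3 to the third place, and Gabra4 and Gabrb1, the lowest members, could not be put in order because their libraries overlapped. The 2 highest members were an α2 and a γ1 subunit gene in each group, with a ratio of Gabra2 to Gabrg1 FPKM of 1.96 ± 0.071 in sham, 1.84 ± 0.16 in SNI and 1.94 ± 0.13 in SNI + G15. The panels of FPKM by library show the levels of all 7 genes.

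**Figure D1:**
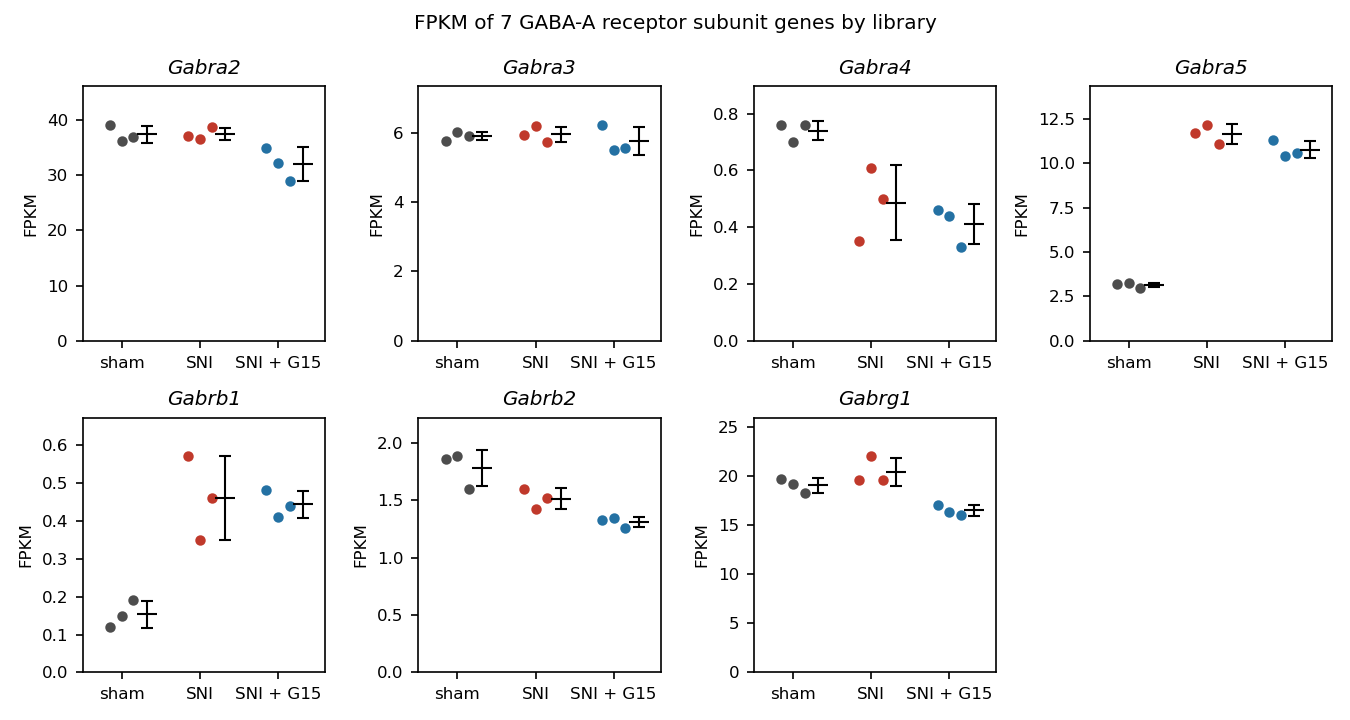
FPKM of each of the 7 subunit genes (vertical axes, each from 0) in the 3 sham, 3 SNI and 3 SNI + G15 libraries (points), with the mean and SD of each group (bars). Gabra5 rises from about 3.15 in sham to 11.6 in SNI, Gabrb1 also rises, Gabra4 and Gabrb2 are lowest in SNI + G15, and the Gabra2 and Gabrg1 libraries of SNI + G15 all lie below those of SNI.

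After SNI, 4 of the 7 subunits differed from sham at an adjusted p below 0.05, 2 upwards (Gabra5 and Gabrb1) and 2 downwards (Gabra4 and Gabrb2), whereas Gabra2, Gabra3 and Gabrg1 did not pass. Adjusted p-values are those of the quasi-likelihood test in edgeR, corrected by the Benjamini-Hochberg method over every gene of the fit. Of the 14305 genes that reached an FPKM of 1 in any library, among which were 5 of the 7 members, 23.3% were higher and 22.4% lower in SNI. Gabra4 and Gabrb1 lay below that filter and were tested among the 20107 genes with at least 1 count, of which 17.1% were higher and 16.4% lower. The share of members called in either direction, 4 of 7, is thus to be read against a background in which a large part of all DRG genes was called.

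Gabra5 encodes α5, a subunit known for extrasynaptic receptors that carry tonic current. Its FPKM was 3.21, 3.23 and 3.0 in the sham libraries, 11.7, 12.2 and 11.1 in SNI, and 11.3, 10.4 and 10.6 in SNI + G15. The sham libraries lay far below all 6 injured libraries, and the injured groups overlapped. The log2 fold change in SNI against sham was 1.83 (SE 0.065, adjusted p = 7.03e-09, edgeR), a 3.54-fold higher level, and it lay between 1.61 and 1.86 under the 15 alternative settings. The value for SNI + G15 against sham was 1.72 (SE 0.069, adjusted p = 8.47e-08, edgeR). Between SNI + G15 and SNI the difference was -0.085, with an interval of 2 standard errors from -0.21 to 0.036 (adjusted p = 0.362, edgeR). The gene did not pass in that comparison, and a change within the interval could not be told from none with 3 libraries a group.

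Gabra2 encodes α2, the subunit that the study followed. Its FPKM was 39.1, 36.1 and 36.9 in sham, 37.1, 36.6 and 38.7 in SNI, and 35.0, 32.2 and 28.9 in SNI + G15. The sham and SNI libraries overlapped, and the 3 SNI + G15 libraries were the lowest of the 9. In SNI against sham the log2 fold change was -0.035 (SE 0.042, adjusted p = 0.528, edgeR), with an interval from -0.12 to 0.049. With G15 it was, against SNI, -0.23 (SE 0.063, adjusted p = 0.0423, edgeR), or 0.855-fold, and against sham -0.28 (SE 0.068, adjusted p = 0.00702, edgeR).

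The call of Gabra2 between SNI + G15 and SNI was close to the threshold. It was lost in 8 of the 15 alternative settings, including without each SNI library in turn and without SNI + G15 replicate 2, where the adjusted p lay between 0.0794 and 0.150. It was kept without SNI + G15 replicate 3, the library that stood apart, at a smaller log2 fold change of -0.16 (adjusted p = 0.0293, edgeR). The direction was downwards in every setting. Against sham, the call of SNI + G15 held in all 15 settings, with a log2 fold change of -0.21 without SNI + G15 replicate 3 (adjusted p = 0.0131, edgeR).

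Gabra3 encodes α3, another benzodiazepine-sensitive subunit. Its FPKM was 5.77, 6.02 and 5.91 in sham, 5.93, 6.18 and 5.74 in SNI, and 6.22, 5.50 and 5.56 in SNI + G15. The 3 groups overlapped, and the gene passed in none of the 3 comparisons. Its log2 fold change was -0.024 in SNI against sham with an interval from -0.15 to 0.10, and -0.028 in SNI + G15 against SNI with an interval from -0.17 to 0.11 (adjusted p = 0.802 and 0.808, edgeR).

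Gabra4 encodes α4, a subunit that lacks the classical benzodiazepine site. It had 58, 54 and 55 estimated reads in sham, 26, 40 and 38 in SNI, and 35, 28 and 25 in SNI + G15. All injured libraries lay below all sham libraries, and the injured groups overlapped. The log2 fold change was -0.72 in SNI against sham (SE 0.19, adjusted p = 0.0134, edgeR) and -0.97 in SNI + G15 against sham (SE 0.18, adjusted p = 0.00245, edgeR). The call in SNI against sham was lost with DESeq2 (adjusted p = 0.0630), in all 3 limma-trend settings and without sham replicate 1 (adjusted p = 0.0533), and the size again depended on the pseudocount, at -0.23 with limma-trend on log2(FPKM + 1), where SNI + G15 against sham was at -0.30. Between SNI + G15 and SNI the difference was -0.23, and at these few reads its interval was wide, from -0.69 to 0.24 (adjusted p = 0.579, edgeR).

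The β subunits, which form the GABA site together with α, moved in opposite directions after injury. Gabrb1, encoding β1, had 31, 40 and 38 estimated reads in sham, 111, 91 and 99 in SNI, and 111, 106 and 82 in SNI + G15. Every injured library was above every sham library. Its log2 fold change was 1.43 in SNI against sham (SE 0.16, adjusted p = 3.12e-05, edgeR), 2.69-fold, and 1.41 in SNI + G15 against sham (SE 0.17, adjusted p = 0.000166, edgeR). Both calls held in all 14 alternative settings, but at this low level the size depended on the pseudocount: with limma-trend on log2(FPKM + 1) the values were 0.34 and 0.32. The value for SNI + G15 against SNI was 0.0038, with an interval from -0.28 to 0.29 (adjusted p = 1, edgeR).

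Gabrb2, encoding β2, had an FPKM of 1.86, 1.88 and 1.60 in sham, 1.60, 1.42 and 1.52 in SNI, and 1.33, 1.34 and 1.26 in SNI + G15. Sham replicate 3 and SNI replicate 1 had the same FPKM, while the SNI + G15 libraries lay below all others. The log2 fold change was -0.26 in SNI against sham (SE 0.085, adjusted p = 0.0279, edgeR) and -0.48 in SNI + G15 against sham (SE 0.087, adjusted p = 0.00138, edgeR). In SNI against sham the call was lost with DESeq2 (adjusted p = 0.106), in all 3 limma-trend settings, and without sham replicate 1, sham replicate 2, SNI replicate 2 or SNI replicate 3, where the adjusted p lay between 0.0683 and 0.106. Against SNI, SNI + G15 was at -0.20 and did not pass (SE 0.075, adjusted p = 0.108, edgeR). The ratio of Gabrb2 to Gabrb1 FPKM was 12.2 ± 3.55 for sham, 3.39 ± 0.63 for SNI and 2.97 ± 0.26 for SNI + G15. Its denominator was small in sham, with a Gabrb1 FPKM of 0.12 to 0.19, and the sham ratio ran from 8.42 to 15.5.

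Gabrg1 encodes γ1, a γ subunit whose receptors respond weakly to benzodiazepines. Its FPKM was 19.7, 19.2 and 18.3 in sham, 19.7, 22 and 19.6 in SNI, and 17.1, 16.4 and 16.1 in SNI + G15. The sham and SNI libraries overlapped, and the SNI + G15 libraries were the lowest of the 9. It was the member that fell furthest between SNI + G15 and SNI among those called, with a log2 fold change of -0.29 (SE 0.054, adjusted p = 0.00936, edgeR), or 0.819-fold. This call held in all 15 alternative settings, with adjusted p between 0.00108 and 0.0439, and without SNI + G15 replicate 3 the value was -0.28. Against sham, SNI + G15 was at -0.24 (SE 0.058, adjusted p = 0.00810, edgeR). The call against sham also held in all 15 alternative settings, with a log2 fold change between -0.30 and -0.18. In SNI against sham the value was 0.076, with an interval from -0.031 to 0.18 (adjusted p = 0.274, edgeR).

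Between SNI + G15 and SNI, Gabra2 and Gabrg1 were thus the 2 members called, both lower, and 5 were not called. At an unadjusted p below 0.05, 3 members were lower (Gabrb2 was the other) and 0 higher in edgeR, and DESeq2 also called 2 members lower and 0 higher. Of the 14305 genes, 7.98% were higher and 7.25% lower in SNI + G15, and of the 20107 genes 5.02% were higher and 4.42% lower. Compared with sham, SNI + G15 had 6 members called, 2 higher and 4 lower, with Gabra3 as the exception, beside 21.4% of the 14305 genes higher and 21.9% lower, and 15.9% and 16% of the 20107 genes. The 2 comparisons with sham share the sham libraries, and the 2 with SNI + G15 share those libraries. The plot of log2 fold changes sets the 3 comparisons side by side.

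**Figure D2:**
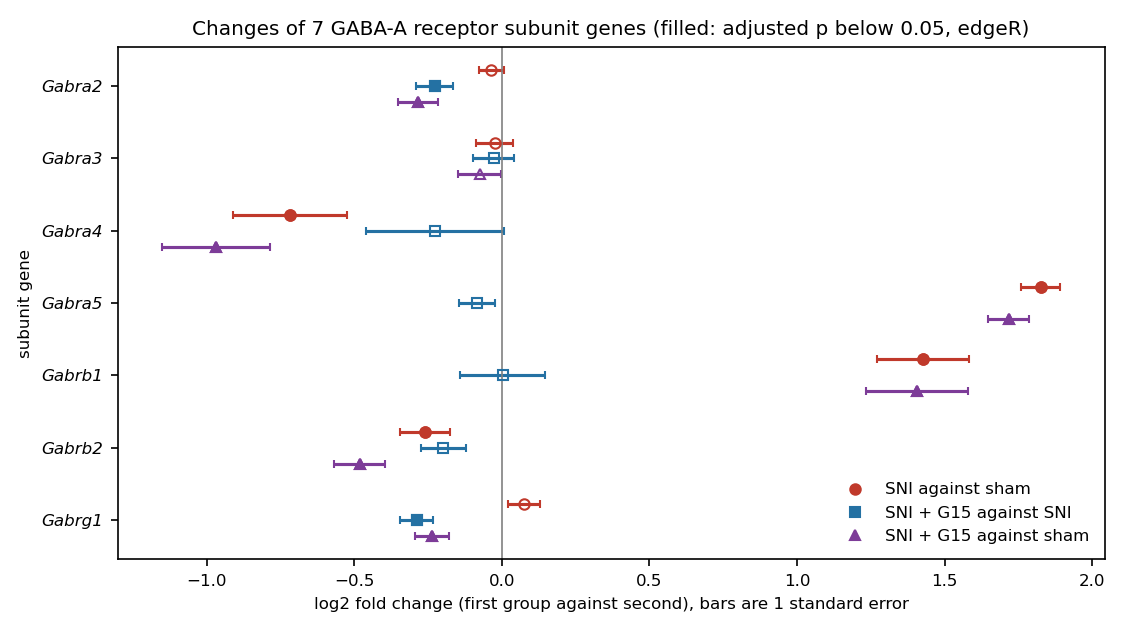
Log2 fold change (horizontal axis) of each of the 7 subunit genes in SNI against sham (circles), SNI + G15 against SNI (squares) and SNI + G15 against sham (triangles), with bars of 1 standard error and filled symbols at an adjusted p below 0.05 in edgeR. Gabra5 and Gabrb1 lie near 1.83 and 1.43 after SNI and near 0 between SNI + G15 and SNI, where only the symbols of Gabra2 and Gabrg1 are filled.

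The make-up of the α transcripts changed with the injury mainly through Gabra5. As a share of the summed FPKM of Gabra2, Gabra3, Gabra4 and Gabra5, Gabra5 held 6.57, 7.01 and 6.44% in the sham libraries, 21.3, 21.9 and 19.8% in SNI, and 21.3, 21.4 and 23.3% in SNI + G15. Gabra2 held 80.1, 78.4 and 79.3% in sham, 67.3, 65.9 and 69.1% in SNI, and 66.1, 66.3 and 63.7% in SNI + G15, while its FPKM in SNI was that of sham within the spread. The fall of the Gabra2 share depended on this denominator: as a share of all 19 subunit genes, Gabra2 was 0.92 points higher in SNI than in sham, 0.96 points higher in SNI + G15 than in sham, and 0.035 points higher in SNI + G15 than in SNI. The Gabra5 share was 14.3 percentage points higher in SNI than in sham (two-sided exact permutation test, p = 0.1, the smallest that 3 against 3 libraries allow, and 0.15 after Benjamini-Hochberg adjustment over the 12 shares compared). Between SNI + G15 and SNI it differed by 1.06 points (two-sided exact permutation test, p = 0.4, adjusted 0.436), and the Gabra2 share by -2.09 points (p = 0.3, adjusted 0.36, the same exact test).

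In sum over the 4 α members, FPKM was 47.2 ± 1.47 in sham, 55.6 ± 0.47 in SNI and 49.0 ± 3.83 in SNI + G15 (SD, n = 3). Over all 19 subunit genes of the table it was 138 ± 3.82, 134 ± 2.47 and 114 ± 8.72, and the 7 members held 49.4 ± 0.21%, 58.2 ± 0.15% and 58.9 ± 1.30% of it. The remaining 12 subunit genes are given by counts: 9 were below an FPKM of 1 in every library, reaching at most 0.56, and of the 3 tested 1 was higher and 2 lower in SNI against sham, 0 higher and 2 lower in SNI + G15 against SNI, and 0 higher and 2 lower in SNI + G15 against sham (edgeR). Their summed FPKM lay between 68.4 and 71.9 in sham, 55.0 and 57.4 in SNI, and 41.7 and 50.2 in SNI + G15, groups that did not overlap.

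**Figure D3:**
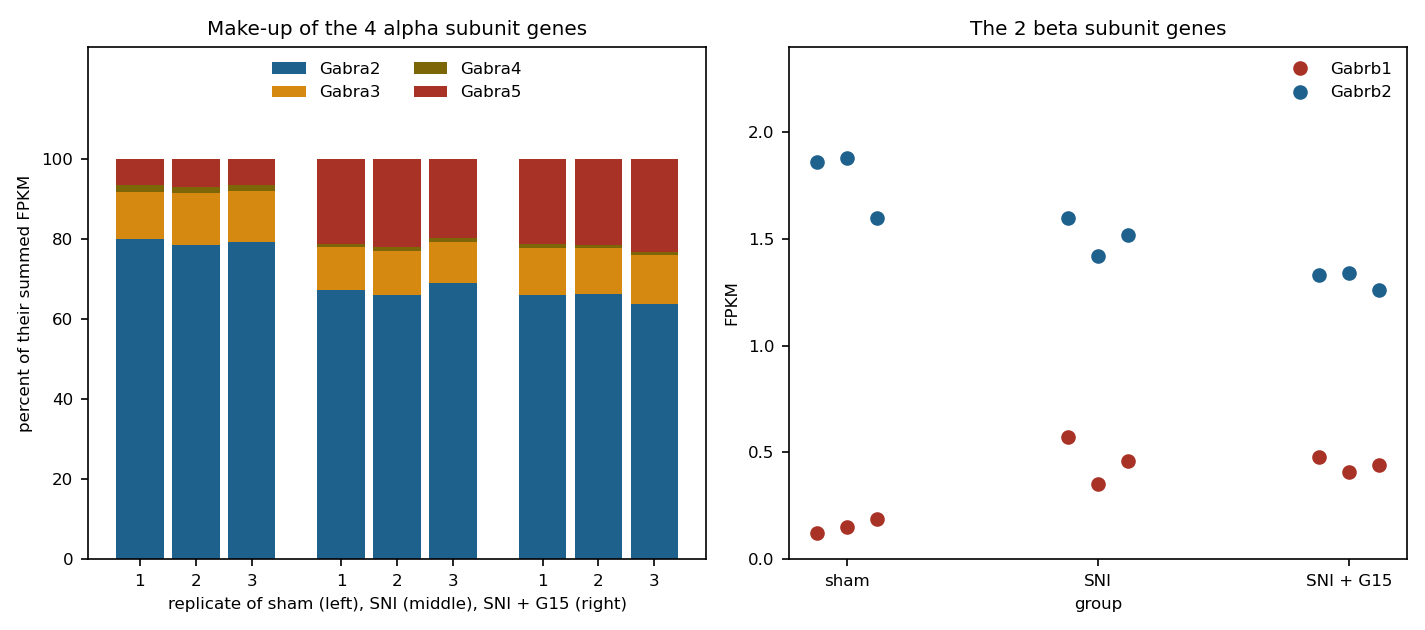
Left, share in percent of the summed FPKM of the 4 α subunit genes held by each of them (stacked bars, 1 per library), and right, FPKM of the 2 β subunit genes by library (points). The Gabra5 share is near 6.67% in sham and 21.0% in SNI, and Gabrb1 rises while Gabrb2 is lower in the injured groups.

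Transcript values of the members were less certain than gene values, because reads that fit several transcripts were divided among them. Of 19 member transcripts, 16 had at least 10 reads in sum and were tested. In SNI against sham 1 was called, XM_008770136.2 of Gabrb1, higher with a log2 fold change of 1.41 (SE 0.24, adjusted p = 0.0365, edgeR), and that call was lost with limma-trend on log2(FPKM + 0.1) or log2(TPM + 0.1), and without any 1 of sham replicate 1, sham replicate 2, SNI replicate 1, SNI replicate 2 and SNI replicate 3. Over all transcripts 2.87% were higher and 2.49% lower in that comparison. Between SNI + G15 and SNI edgeR called 0 of the 16 (2 at an unadjusted p below 0.05, and DESeq2 called 2), beside 0.146% of all transcripts higher and 0.0802% lower. Between SNI + G15 and sham it called 0 (6 at an unadjusted p below 0.05, and DESeq2 called 6), beside 2.73% higher and 2.5% lower.

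Gabra5 showed this division most. Its gene total was steady within each group, and its estimated reads were whole numbers in all 9 libraries, yet XM_017589075.1 held 2.00% of the gene's FPKM in 1 library and 60.6% in another, and XM_017589073.1 between 19.4% and 68.7%. The FPKM of XM_017589075.1 was 0.93, 1.65 and 0.06 in sham, 6.48, 6.63 and 5.75 in SNI, and 3.86, 1.71 and 6.41 in SNI + G15. The SNI + G15 libraries ran from 1.71, just above the highest sham library, to 6.41, within the SNI range. All injured libraries thus lay above all sham libraries. The transcript passed in no comparison (adjusted p = 0.251 after SNI, 0.721 for SNI + G15 against SNI and 0.437 for SNI + G15 against sham, edgeR). XM_017589076.1 had reads in 2 libraries, both SNI.

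Gabra2 was the reverse. A single transcript, XR_001841016.1, held between 83.4% and 91.7% of the gene's FPKM in every library, and by its RefSeq prefix it is a model of a non-coding transcript. The coding model XM_006250931.3 held most of the rest, and its FPKM was 3.99, 3.01 and 5.15 in sham, 5.05, 3.89 and 5.44 in SNI, and 5.78, 4.17 and 4.79 in SNI + G15, groups that overlapped. The curated coding transcript NM_001135779.1 was above 0 in 1 library, at an FPKM of 0.09. The FPKM of XR_001841016.1 was 32.1, 32.7 and 33.3 in SNI and 29.2, 27.9 and 24.1 in SNI + G15, groups that did not overlap. The log2 fold change was -0.26 and did not pass among transcripts (SE 0.068, unadjusted p = 0.0116, adjusted p = 0.308, edgeR), against 0.052 for XM_006250931.3 (SE 0.19, adjusted p = 0.997, edgeR).

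How reads were assigned between these models was the authors' step, and the difference between the 2 changes was not tested. The study's designed PCR primers for Gabra2 and Gabra5 were listed against NM_001135779.2 and NM_017295.1, the curated coding transcripts. In these libraries those transcripts held 0 to 0.280% and 0 to 36.8% of the genes' FPKM (the first as version NM_001135779.1). Which of the transcript models the primers match was not tested, so these shares do not say what the PCR measured. The primer sequences follow.
Gabra2 forward primer: gtttatcgctgtttgttacgcg
Gabra2 reverse primer: tgttctgtatcatgacggagcc
Gabra5 forward primer: gcacaacatgacgacaccca
Gabra5 reverse primer: cagacttggtggaaccattgg

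The other members rested on 1 main transcript each. XM_017601916.1 held 69.8 to 100% of Gabra3, XM_017599056.1 70.5 to 100% of Gabra4, and XM_017599055.1 85.8 to 91.9% of Gabrg1, and Gabrb2 had XM_006246127.2 alone. Gabrb1 was split between XM_008770136.2 and the shorter NM_012956.1, which carried 259 and 35.1 reads per unit of FPKM. A read assigned to the shorter therefore adds more to the gene's FPKM, and in SNI replicates 1 and 2 had an FPKM of 0.57 and 0.35 from 111 and 91 reads.

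**Figure D4:**
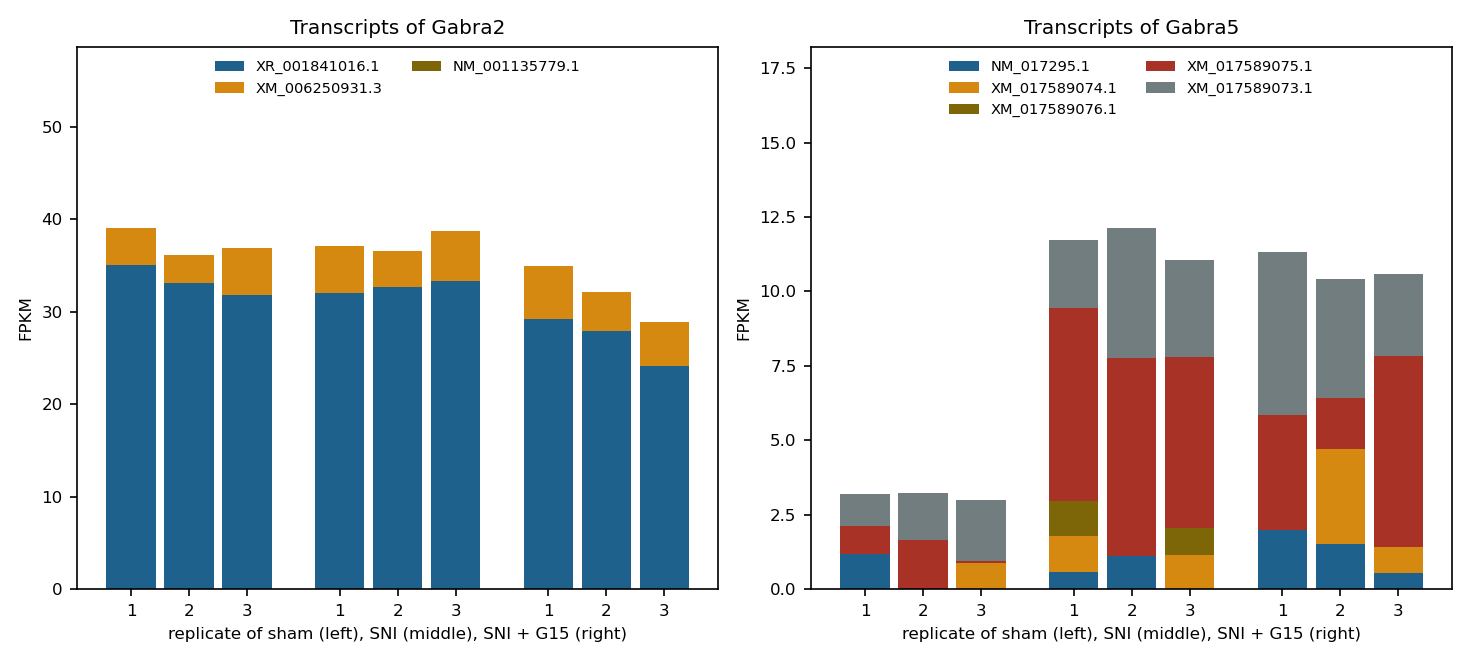
FPKM of the 3 transcripts of Gabra2 (left) and the 5 transcripts of Gabra5 (right), stacked by library for sham, SNI and SNI + G15. In Gabra2 XR_001841016.1 makes up most of every bar, while in Gabra5 the bars reach similar heights within a group with different divisions between transcripts.

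Of the 7 members, 4 are neighbours in the genome and were called differently. On RefSeq GRCr8, used here for the order of genes, Gabrb1, Gabra4, Gabra2 and Gabrg1 lie in that order on chromosome 14, with Cox7b2 as the only other protein-coding gene between them. After SNI the first rose, the second fell, and Gabra2 and Gabrg1 did not pass. With G15 against SNI the last 2, which are next to each other, were the members called. Of the flanking genes, Commd8 beside Gabrb1 passed in no comparison (log2 fold change -0.010 in SNI against sham, adjusted p = 0.933, edgeR), and Gnpda2 beside Gabrg1 was 0.32 higher in SNI (SE 0.054, adjusted p = 0.000875, edgeR) and 0.0040 in SNI + G15 against SNI. Gabra3 lies on chromosome X, Gabra5 on chromosome 1 and Gabrb2 on chromosome 10.

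**Figure D5:**
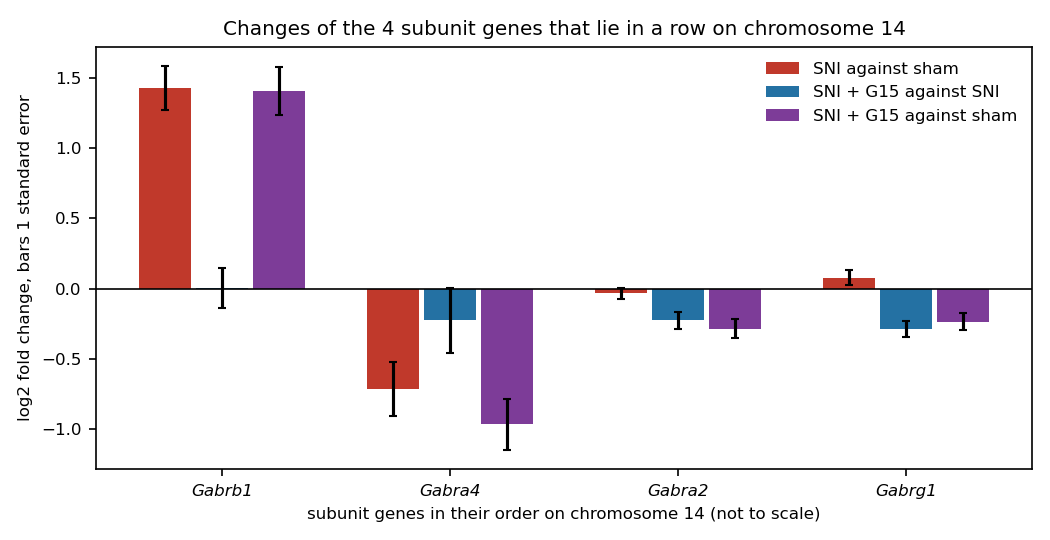
Log2 fold change (vertical axis, with bars of 1 standard error) of the 4 subunit genes in a row on chromosome 14, in their order and not to scale, in the 3 comparisons. Gabrb1 is raised by 1.43 in SNI against sham and its neighbour Gabra4 is at -0.72, while Gabra2 and Gabrg1 lie near 0 after SNI and at -0.23 and -0.29 in SNI + G15 against SNI.

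By likeness of pattern over the 9 libraries (Pearson's r of log2 of counts scaled to library size, CPM, among 12956 genes with a symbol and a mean of at least 1), the members fell apart in the same way. The genes most like Gabra5 were Fcgr2b, Rab31 and Lcp1 (r = 0.9996, 0.999 and 0.999), and most like Gabrb1 were Myrf, Cttn and Celf3 (r = 0.996, 0.995 and 0.992). For both, the 9 points form a low sham group and a high injured group, and 1211 and 1043 genes had an r over 0.9. Most like Gabra2 were Rab27b, Scn9a, which encodes a sodium channel of nociceptors, and Pcdha4 (r = 0.989, 0.987 and 0.985), and most like Gabrg1 were Cand1, Dennd4a and Arl8b (r = 0.973, 0.967 and 0.961). Gabra4 was most like Ntrk3, the receptor of neurotrophin-3, Slc25a40 and Lgalsl (r = 0.980, 0.978 and 0.977), and Gabrb2 most like Fen1, Fam204a and Kbtbd2 (r = 0.991, 0.984 and 0.978). These were the top of long lists: 365 genes had an r over 0.9 with Gabra2, 62 with Gabrg1, 454 with Gabra4 and 517 with Gabrb2. Gabra3, which did not follow the groups, had 3 genes over 0.9: Spata6, Ddx51 and Ptdss1 (r = 0.952, 0.913 and 0.910).

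Partners that assemble, anchor or move GABA-A receptors were called in both directions. Of 23 tested genes of this list, 5 were higher and 9 lower in SNI against sham (median log2 fold change -0.098), beside 23.3% higher and 22.4% lower over all tested genes (median 0.0010). For SNI + G15 against SNI 1 was higher and 3 lower (median -0.10), beside 7.98% and 7.25% (median 0.0063), and between SNI + G15 and sham 4 were higher and 10 lower (median -0.15), beside 21.4% and 21.9% (median -0.0037). The lists that follow are to be read against the same shares and medians. Slitrk3, a postsynaptic adhesion protein of inhibitory synapses, had a log2 fold change of -0.73 (SE 0.061) in SNI against sham, with a mean FPKM of 15.1 in sham and 9.27 in SNI, and Plcl1, which binds GABARAP, -0.51 (SE 0.086). Shisa7, an auxiliary GABA-A receptor protein, was 0.69 higher (SE 0.082) and Maged1 0.66 higher (SE 0.035). Gphn, encoding the scaffold gephyrin and added after its values were seen, was at -0.36 (SE 0.051, adjusted p = 0.000213, edgeR) in SNI against sham and did not pass in SNI + G15 against SNI (-0.11, adjusted p = 0.174, edgeR).

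In SNI + G15 against SNI the 4 called partners were Iqsec3, which binds gephyrin, at -0.34 (SE 0.049), Mdga1, a partner of neuroligin-2, at -0.28 (SE 0.080), Maged1 at -0.17 (SE 0.037) and Gabarap, which links receptors to microtubules, 0.25 higher (SE 0.048). Of 12 tested subunits of the other Cys-loop receptors (nicotinic, 5-HT3 and glycine), 4 were higher and 5 lower in SNI against sham (median -0.15), 0 higher and 6 lower in SNI + G15 against SNI (-0.18), and 1 higher and 9 lower in SNI + G15 against sham (-0.52). In SNI against sham Chrna1 was 1.17 higher (SE 0.14), and Htr3b, Htr3a and Chrnb3 were at -0.68, -0.47 and -0.47. In SNI + G15 against SNI, Chrnb4 fell by 1.16 on the log2 scale (SE 0.11, adjusted p = 0.000424, edgeR), from a mean FPKM of 7.14 to 3.18, and Chrna3, Chrne and Chrna7 were at -0.54, -0.49 and -0.28.

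Markers of the cells of the ganglion moved as well, and their part in the subunits' values was not tested. Of 25 sensory neuron genes, 3 were higher and 13 lower in SNI against sham (median -0.22) and 2 higher and 5 lower in SNI + G15 against SNI (median -0.032), and their summed FPKM had ranges of 18799 to 19164 (sham), 16651 to 17016 (SNI) and 16851 to 17810 (SNI + G15). Less the median of the same comparison, Gabra5 and Gabrb1 were at 2.04 and 1.64 in SNI against sham, Gabra4 at -0.50 and Gabrb2 at -0.045. Gabra2 and Gabrg1 were then at 0.18 and 0.29 in SNI against sham, and at -0.19 and -0.26 in SNI + G15 against SNI. In SNI + G15 against sham the list's median was -0.29. Less that value, Gabra2 and Gabrg1 were at 0.0040 and 0.053, Gabra4 and Gabrb2 at -0.68 and -0.19, and Gabra5 and Gabrb1 at 2.01 and 1.70. Of 10 Schwann cell genes 7 were lower in SNI against sham (summed FPKM 6312 to 6452 in sham and 3762 to 3838 in SNI) and 6 higher in SNI + G15 against SNI (4106 to 4189). Of 8 satellite glia genes 4 were higher and 1 lower in SNI against sham, and 3 higher and 2 lower in SNI + G15 against SNI.

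Of 9 macrophage genes 8 were higher in SNI against sham (summed FPKM 52.6 to 59.2 in sham and 117 to 129 in SNI) and 3 higher in SNI + G15 against SNI (129 to 131). Of 8 fibroblast genes 2 were higher and 3 lower in SNI against sham and 5 higher in SNI + G15 against SNI, and of 7 endothelial genes 1 was higher and 1 lower, and 2 higher and 1 lower. All 6 erythroid genes were higher in SNI against sham (97.3 to 101 and 326 to 334) and lower in SNI + G15 against SNI (194 to 228). No gene of these lists was at 0 in every library.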

How the data were processed

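Per the study's methods, total RNA of DRG was sequenced as paired 150 bp reads, with 3 rats a group chosen at random, whereas the supplement's list of animals gives 6 a group for RNA-Seq. The labels' own protocol names another extraction and library kit for macrophages, which cannot be DRG, and the names GRCm38 and mm10 in the submitters' processing notes are mouse builds although the gene IDs are those of rat, so the build of the deposited values is not known and none of their coordinates is used. The aligner is not given in the sources used here. The authors deposited estimated counts, FPKM and TPM per gene and per transcript, and the FPKM of a gene is the sum over its transcripts. Columns named for a control were taken as sham, the group left by the other names. Gene IDs matched RefSeq GRCr8 for 18599 of 20194 genes.

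The deposited estimated counts, which need not be whole, were rounded and fitted per comparison with edgeR 4.0.16 in R 4.3.3 (TMM, quasi-likelihood, Benjamini-Hochberg over all genes fitted), on the 14305 genes that reached an FPKM of 1 in any library, the filter of the methods. Gabra4 and Gabrb1, below it, came from the 20107 genes with at least 1 count, and transcripts from the 41125 with at least 10 reads in sum. Intervals are 2 standard errors to each side, and standard errors were derived from the F statistic. P-values measure the spread between 3 libraries a group. That each library is another rat is not stated in the labels, and the SNI + G15 titles share 1 SNI number before their own, so those libraries were only taken as separate rats. Shares were compared by an exact permutation test, in Python 3.11.15. Alternatives were DESeq2 1.42.0, RLE scaling, all genes, limma-trend (limma 3.58.1) on log2 of the deposited FPKM plus 1 or 0.1, a single fit of all 9 libraries, a block for the replicate number, each library left out and, added after the data were seen, the deposited TPM plus 0.1 and a length trend removed.

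The members and lists were chosen with earlier results of these data known, and the motifs after the start regions were read. Named were all members, at most the 4 called genes of a list with the largest log2 fold change in a comparison, and the 3 genes most like each member. Start regions were in the table for 6 members, and those of Gabra5, Gabra4, Gabrb1 and Gabrb2 are printed. The remaining subunits are not reported by name here. Protein and PCR data were not used here.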

Additional observations from a re-analysis of the deposited data

How the results depend on the processing

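Over the 309 alternative fits of single members, 274 kept direction and side of the threshold, 21 kept direction and lost a call, and 14 changed sign, each of the last for a value near 0 that was not called. In SNI against sham the count of members called fell from 4 to 2 with DESeq2 and with limma-trend at FPKM plus 1, FPKM plus 0.1 and TPM plus 0.1, where Gabra4 and Gabrb2 were lost, and lay between 2 and 4 with a library left out (2 without sham replicate 1). In SNI + G15 against SNI it fell from 2 to 1 with limma-trend at FPKM plus 1 and plus 0.1, with the replicate block and with a length trend removed, and lay between 1 and 2 with a library left out (1 without SNI replicate 1, 2 or 3 or SNI + G15 replicate 2); Gabra2 was the member lost, and the cause was not tested. In SNI + G15 against sham it was 6 in every setting.

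Member transcripts called in SNI against sham, 1 in the reported fit, were 3 with DESeq2, 2 with limma-trend at FPKM plus 1, 0 at FPKM plus 0.1 and TPM plus 0.1, 0 with the replicate block, and 0 to 1 with a library left out. In SNI + G15 against SNI they were 2 with DESeq2 instead of 0, and in SNI + G15 against sham 6 with DESeq2, 3 with all 9 libraries in one fit and 2 with a length trend removed instead of 0. With all 19 subunits as denominator the Gabra5 share differed by 6.41 points in SNI and 7.17 points in SNI + G15 against sham. The Gabra2 share then turned from -11.8 to 0.92 points (SNI against sham), from -13.9 to 0.96 (SNI + G15 against sham) and from -2.09 to 0.035 (SNI + G15 against SNI), and the Gabra3 share from -1.81 to 0.17 and from -0.74 to 0.78 against sham.

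Signs changed in SNI against sham for Gabra2 with limma-trend at FPKM plus 1 (0.0037) and plus 0.1 (0.0038), and for Gabra3 at FPKM plus 1 (0.010), FPKM plus 0.1 (0.012) and TPM plus 0.1 (0.0011). In SNI + G15 against SNI they changed for Gabrb1 at FPKM plus 1 (-0.014), FPKM plus 0.1 (-0.027), TPM plus 0.1 (-0.10) and with the replicate block (-0.00050), and with a library left out Gabrb1 lay between -0.075 and 0.12 and Gabra3 between -0.081 and 0.0048. Library numbers did not pair the libraries, since 1 of 9 correlations of same-numbered libraries was over 0.1 (from -0.11 to 0.13); with the block, Gabra2 in SNI + G15 against SNI had an adjusted p of 0.0767 in edgeR, and no other call of a member gene changed. Reads limit Gabra4 and Gabrb1 most, at 25 to 58 and 31 to 111 a library.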
